A study of Mus musculus with 22 samples.

Results

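Proteasome genes were compared in whole brain between the inbred mouse strain C57BL/6J, here B6, and the strain DBA/2J, here D2. The genes are those whose single symbol in the array's annotation begins with Psma, Psmb, Psmc, Psmd, Psme, Psmf or Psmg. There were 49 such genes of 22276 annotated gene symbols, with 686 probesets, of which 685 had a value. All animals were naive adult males, 10 of B6 and 12 of D2, and neither group had a treatment. Each Affymetrix Mouse Exon array, which measures many probesets along the exons of a gene, held the total RNA of 1 mouse after removal of ribosomal RNA. A probeset was used where its mean over the 22 arrays reached the median of all probesets, a log2 level of 1.44 (the filter level). This kept 617 of the 685. The nearest used probesets, of Psmd9 and Psmf1, averaged 1.46 and 1.49, and the nearest unused ones, of Psme4 and Psme1, averaged 1.42 and 1.33. A gene's value on an array was the median of its used probesets, given as log2. The 46 genes with at least 3 of them (3 to 63 per gene) were tested. Psma8 (1 used), Psme2 (2) and Psmb11 (0) were not tested at gene level.

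The proteasome is the protease complex that degrades proteins tagged with ubiquitin. Its core particle is a barrel of stacked rings, in which the Psma genes encode the outer rings and the Psmb genes the inner rings that hold the proteolytic sites. The regulatory particle caps the barrel, and there the ATPases encoded by Psmc genes unfold the substrate while the Psmd subunits recognise it and remove ubiquitin. Interferon-gamma induces alternative catalytic subunits, which form the immunoproteasome of antigen presentation. In neurons the proteasome is known for protein turnover at synapses.

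Levels are log2 values, and a level with ± is the mean and SD over the 10 B6 or the 12 D2 mice. A strain difference of a gene or probeset is D2 minus B6 on that scale. It was called where limma's p, adjusted over all features of the same kind (Benjamini-Hochberg), was under 0.05. In the 46 genes the strains were close to each other with 3 exceptions. Psmd6, Psmb6 and Psmd10 fell in D2, no gene rose and 43 were not called, although 7 of the 43 had an unadjusted p under 0.05, Psmb8 with a higher and 6 with a lower value. The called share was 6.52%, while 10.8% of all 16016 genes tested were called (2.57% higher and 8.26% lower in D2). The differences of the 43 uncalled genes ran from -0.34 to 0.26, and the 95% interval lay between -0.5 and 0.5 for 37 of them. The lowest and highest bounds of the 43 intervals were -0.62 and 0.48. The median difference was -0.09 over the 46 genes and -0.05 over all genes, and the value was below 0 for 39 of the 46 (84.8%) and for 61.9% of all genes. The sign of this median changed with the scaling. When the gene median of an array was subtracted from its values, the 2 medians were 0.01 and 0.05, and with the array median as covariate 0.06 and 0.02. That array median, over all probesets, was 1.41 to 1.47 on B6 arrays and 1.45 to 1.51 on D2 arrays. As a covariate it is therefore only partly separate from strain, and a call lost with it cannot be read as an effect of scaling alone. Whole brain is a mixture, so fewer cells of a type and less RNA per cell cannot be told apart.

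**Figure D1:**
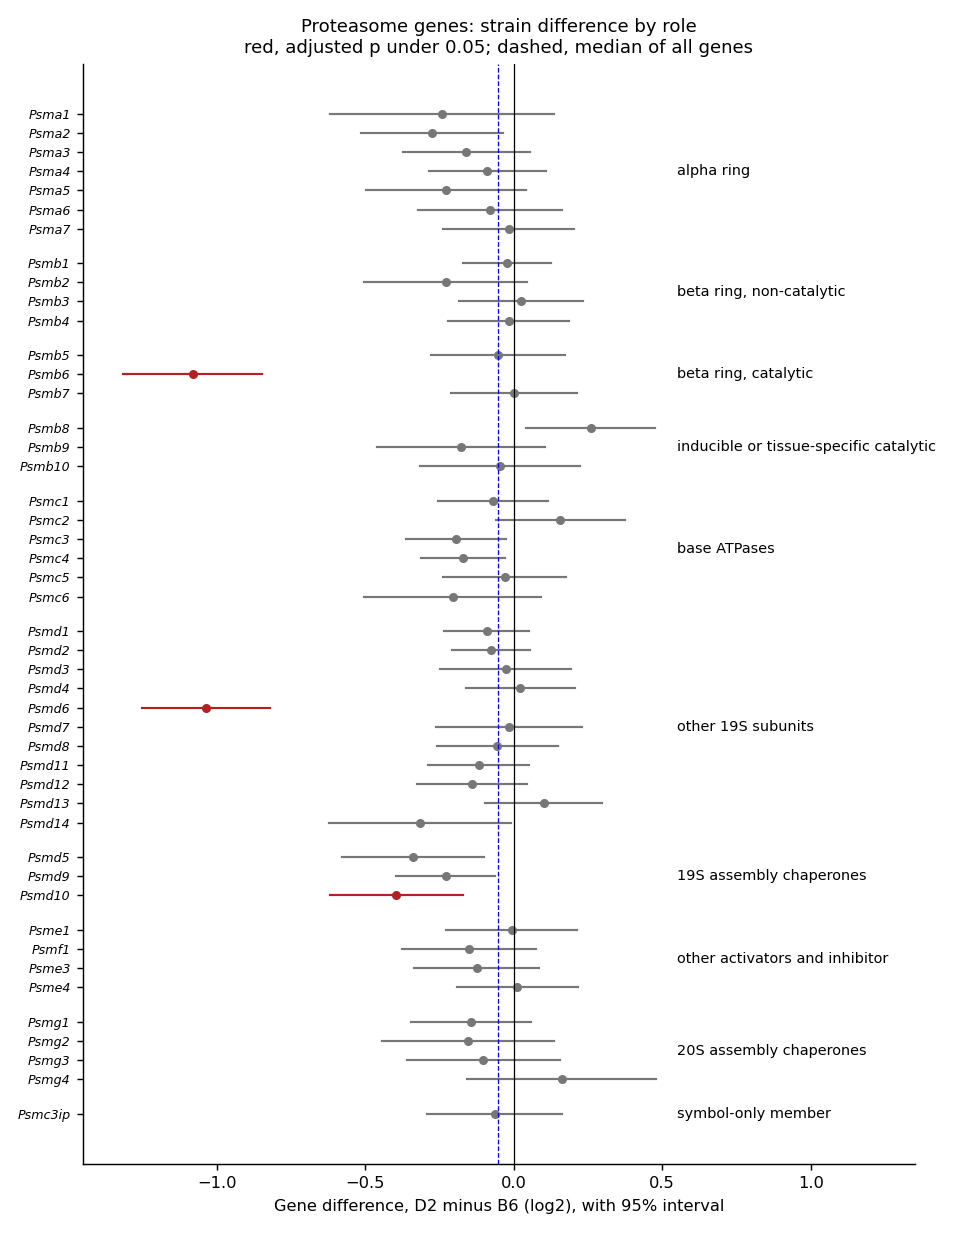
Strain difference of each tested proteasome gene (x axis, D2 minus B6, log2; point, limma estimate; bar, 95% interval; 10 B6 and 12 D2 mice), grouped by role. Red marks the 3 called genes, Psmd6, Psmb6 and Psmd10, all to the left of 0, and the dashed line is the median of all genes tested, -0.05.

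The members on which the results turn are Psmb5, Psmb6 and Psmd6. Their promoter windows (300 bases around the start of the gene, from RefSeq, build GRCm38.p6) are shown because the first 2 hold the core of the antioxidant response element through which the factor encoded by Nfe2l1 is known to act on proteasome genes. Capitals mark the motif TGACNNNGC, searched on both strands (GCNNNGTCA on the other). It occurred in 12.4% of all 32851 windows of 300 bases and in 13.6% of the 44 windows of 41 matched members, namely in Psmb5, Psmb6, Psmc6, Psmd9, Psmd12 and Psme4. Psmb5 lies at chr14:54617946-54618245 (minus strand), Psmb6 at chr11:70525107-70525406 (plus strand) and Psmd6 at chr14:14120896-14121195 (minus strand), and each sequence runs 5′ to 3′ along its gene.
Psmb5: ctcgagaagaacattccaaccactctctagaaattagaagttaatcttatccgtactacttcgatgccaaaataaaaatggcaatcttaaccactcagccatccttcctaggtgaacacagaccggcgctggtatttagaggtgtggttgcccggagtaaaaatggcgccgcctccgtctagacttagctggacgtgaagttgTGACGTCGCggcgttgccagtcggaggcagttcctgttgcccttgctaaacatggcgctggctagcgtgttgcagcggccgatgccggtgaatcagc
Psmb6: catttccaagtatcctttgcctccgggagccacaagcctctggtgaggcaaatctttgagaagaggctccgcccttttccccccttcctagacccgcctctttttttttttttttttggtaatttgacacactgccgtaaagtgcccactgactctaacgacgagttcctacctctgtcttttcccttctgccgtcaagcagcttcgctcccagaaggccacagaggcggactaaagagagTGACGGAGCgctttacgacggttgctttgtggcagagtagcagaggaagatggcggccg
Psmd6: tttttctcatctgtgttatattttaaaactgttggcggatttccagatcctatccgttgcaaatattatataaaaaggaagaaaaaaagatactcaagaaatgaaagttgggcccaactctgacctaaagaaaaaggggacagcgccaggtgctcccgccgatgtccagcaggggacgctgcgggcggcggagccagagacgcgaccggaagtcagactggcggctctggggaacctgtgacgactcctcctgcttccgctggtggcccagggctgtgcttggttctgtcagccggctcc
Nfe2l1 itself was at 7.03 ± 0.13 in B6 and at 7.08 ± 0.20 in D2, a difference of 0.04 that was not called (limma adjusted p = 0.786).

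Psmd6 encodes a lid subunit of the regulatory particle. Its gene value had a lowest, median and highest level of 6.76, 7.20 and 7.62 in the 10 B6 mice and of 5.85, 6.14 and 6.52 in the 12 D2 mice. Every D2 mouse lay below every B6 mouse, and the strains did not overlap, in either direction, for 1.18% of all genes. The value fell by 1.04 on the log2 scale in D2 (SE 0.10, limma adjusted p = 5.77e-08), a 2.05-fold lower level. Most of its probesets shared the fall. All 10 had lower values in D2 and 8 of them were called at their own level, while 3.91% of all used probesets were called. The group means of the 8 differed by -0.63 to -2.23. The steepest, 4682253, ran from 1.93 to 4.74 in B6 (mean 3.94) and from -0.37 to 3.54 in D2 (mean 1.71), so some D2 values lay below the filter level. Probeset 5252333 was at 7.69 ± 0.23 in B6 and at 6.76 ± 0.27 in D2. Probesets 5252333, 4856114 and 5109006 had no overlap between the strains. Probesets 5019383 (-0.32) and 4583390 (-0.06) were the 2 that were not called. The gene-level difference stayed between -1.10 and -0.98 when any one of the 10 probesets was left out.

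**Figure D2:**
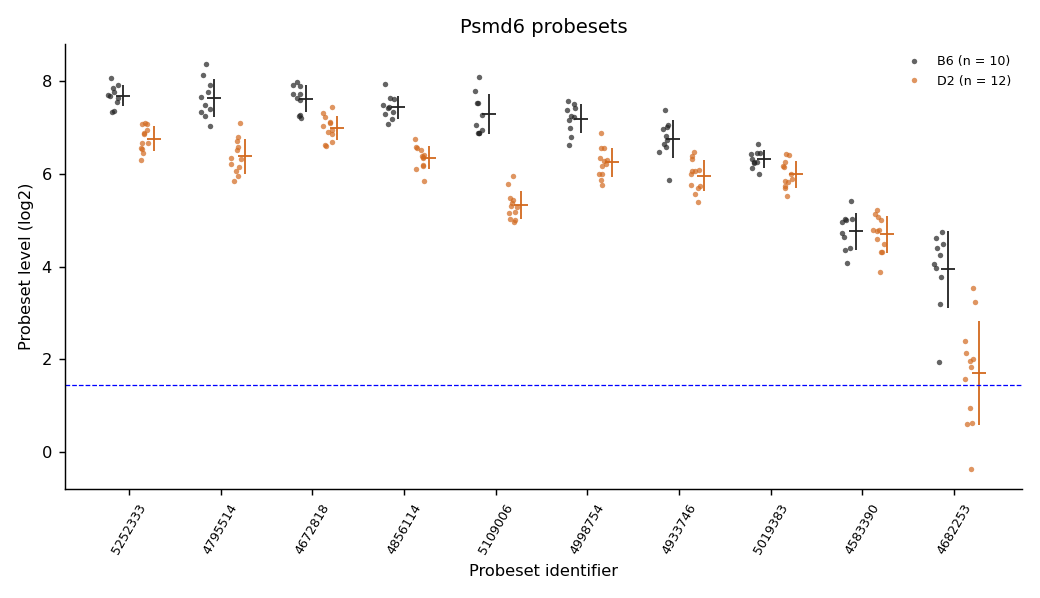
Level of each Psmd6 probeset (y axis, log2) in every mouse, with mean and SD beside the points, ordered by the B6 mean. The D2 mean (orange, n = 12) lies below the B6 mean (black, n = 10) in all 10 probesets, and the points overlap except in 3. The dashed line is the filter level of 1.44, and levels of different probesets are not comparable with each other.

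Probeset values were also set against the gene. The splicing index subtracts the gene value of an array from the probeset level there. An exon usage call required a strain difference in the index of 0.5 or more in size, with limma's adjusted p below 0.05. Of 614 proteasome probesets 17 were called (2.77%, 12 higher and 5 lower in D2), in 8 genes, while 1.66% of all 236114 probesets tested were called (0.894% higher, 0.77% lower). Psmb6 held 7 of the 17 and Psmd6 held 3. Of the 7, 6 were not called against a Psmb6 value taken without probeset 5443190, so the 2.77% rests partly on that probeset. In Psmd6 the index of 5109006 fell by 0.92 (limma adjusted p = 6.78e-05). The index of 4583390 was 0.97 higher and that of 5019383 was 0.71 higher, the same 2 probesets whose own level was not called.

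Psmb6 encodes the core subunit with caspase-like activity. Its gene value was 6.46, 7.03 and 7.29 in B6 (lowest, median and highest of 10 mice) and 5.33, 5.91 and 6.30 in D2 (of 12 mice), again with no overlap. The gene-level difference was -1.08 ± 0.11 (SE, limma adjusted p = 1.24e-07). Unlike in Psmd6, most of this rested on 1 of 7 probesets. Probeset 5443190 was at 6.46, 7.11 and 8.02 in B6 and at 0.25, 1.46 and 3.60 in D2, where 6 of the 12 mice lay below the filter level. Its own level fell by 5.51 (SE 0.31, limma adjusted p = 1.50e-12). Without this probeset the gene was at 6.55 ± 0.18 in B6 and at 6.25 ± 0.23 in D2, and the difference was -0.30 (SE 0.09, limma adjusted p = 0.0368). The other 6 probesets differed by -0.50 to 0.08 at their own level. Of these 4567677 (6.13 ± 0.25 and 5.63 ± 0.23) was called and 4525825 (8.55 ± 0.23 and 8.62 ± 0.25), was not. The index was called higher in D2 for all 6, by 0.58 to 1.16. Against the gene value taken without 5443190 none of these 6 was called (index differences from -0.20 to 0.38), and the index of 5443190 itself fell by 5.21 (limma adjusted p = 9.26e-11). When each of the 46 genes was taken without its probeset of largest difference, 13 proteasome probesets had an exon usage call. The left-out probesets were chosen after seeing the data. The share over all probesets is not given for this rule, so the 13 are not a result about the family.

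Psmb5 encodes the subunit with chymotrypsin-like activity, the main target of proteasome inhibitors used in the clinic. As a gene it had lowest, median and highest values of 5.57, 5.99 and 6.43 in B6 and of 5.56, 6.05 and 6.35 in D2, so the strains overlapped over nearly their whole range. The difference was -0.05 (95% interval -0.28 to 0.17, limma adjusted p = 0.802). A single probeset, 5037994, differed. It was at -0.49, -0.13 and 0.43 in B6, where all 10 mice lay below the filter level, and at 2.89, 3.98 and 5.07 in D2. The lowest D2 mouse was thus well above the highest B6 mouse. The own-level difference was 4.10 ± 0.23 (SE, limma adjusted p = 8.67e-13), with the B6 level below the filter level. The probeset passed the filter on the mean over all 22 arrays only through its D2 values, so this p is no independent support for the difference. The other 6 probesets differed by -0.46 to 0.08 and none was called (lowest limma adjusted p = 0.159). Probeset 5095304, farthest from 0 among them, was at 5.80 ± 0.47 in B6 and at 5.34 ± 0.35 in D2, and probeset 4804256 at 7.79 ± 0.28 and 7.64 ± 0.40. When the gene value was the mean over probesets, probeset 5037994 carried Psmb5 to a called rise of 0.45 (SE 0.10, limma adjusted p = 0.00202), while the median without 5037994 gave -0.04. The limit set by the filter holds for this p too, which is no independent support.

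**Figure D3:**
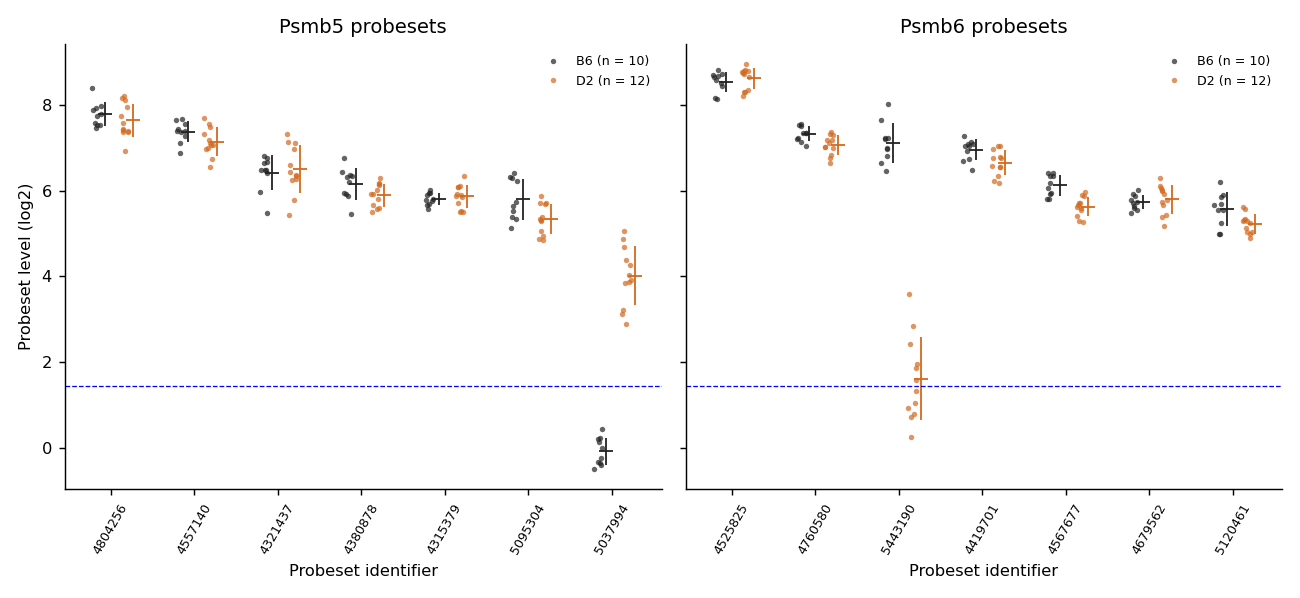
Level of each probeset (y axis, log2) of Psmb5 (left) and Psmb6 (right) in every mouse, with mean and SD beside the points, ordered by the B6 mean; B6 black (n = 10), D2 orange (n = 12). In Psmb5 probeset 5037994 is below the filter level (dashed, 1.44) in B6 and at 2.89 to 5.07 in D2, in Psmb6 probeset 5443190 is at 6.46 to 8.02 in B6 and 0.25 to 3.60 in D2, and the strains overlap in the other probesets.

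Psmb7, the subunit with trypsin-like activity, was at 6.04 ± 0.22 in B6 and at 6.04 ± 0.26 in D2, and the 95% interval of its difference was -0.21 to 0.21. None of its 10 used probesets was called. In the non-catalytic part of the inner rings, none of Psmb1, Psmb2, Psmb3 and Psmb4 was called (differences from -0.23 to 0.02). Psmb2 held 1 dim probeset that went against its gene. Probeset 4657763 was at 3.09 ± 0.39 in B6 and 3.85 ± 0.29 in D2, a rise of 0.77 (limma adjusted p = 0.00199), and its index was higher by 0.99, while the Psmb2 gene value had a level of 6.82 ± 0.36 in B6 and of 6.59 ± 0.30 in D2.

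The inducible catalytic subunits replace Psmb5, Psmb6 and Psmb7 in the immunoproteasome. Psmb8, the counterpart of Psmb5, lay near the filter level with 4 of 11 probesets used. It was at 1.89 ± 0.25 in B6 and at 2.15 ± 0.25 in D2, the strains overlapped, and the difference of 0.26 was not called (limma adjusted p = 0.119). It was 0.01 when all of its probesets were used, and 0.36 with a call (limma adjusted p = 0.0289) without probeset 5170290. Psmb9, the counterpart of Psmb6, had 9 of 17 probesets used and was at 2.62 ± 0.29 in B6 and 2.44 ± 0.38 in D2 (difference -0.18, not called). Psmb10, the counterpart of Psmb7, was at 5.48 ± 0.23 and 5.43 ± 0.38 (difference -0.05, not called). Both probesets of the thymus subunit gene Psmb11 were below the filter level. None of the probesets used for Psmb8, Psmb9 and Psmb10 was called.

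**Figure D4:**
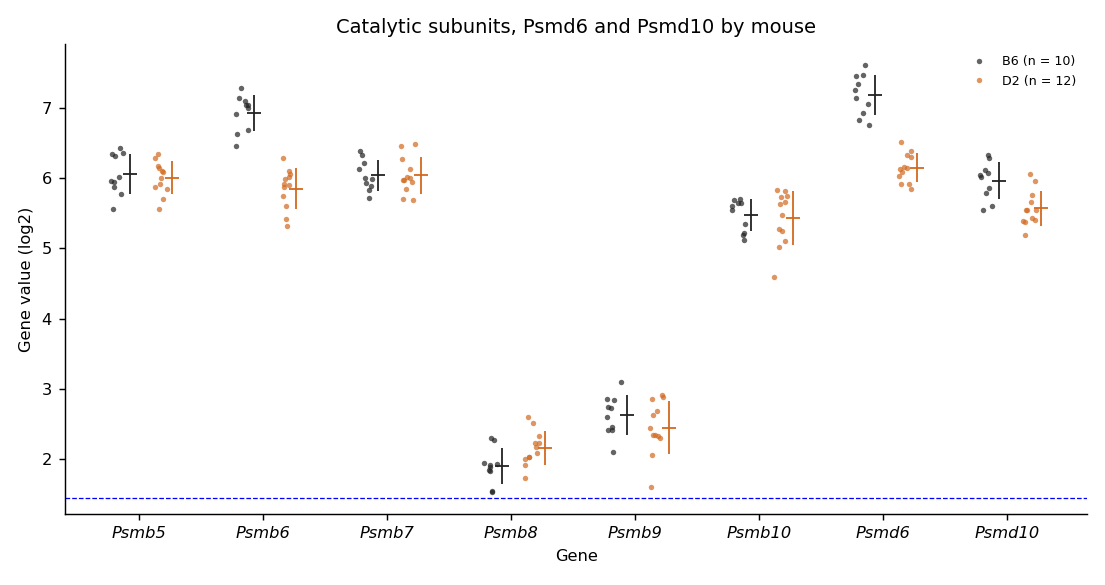
Gene value (y axis, log2) of the catalytic subunits, Psmd6 and Psmd10 in every mouse, with mean and SD beside the points; B6 black (n = 10), D2 orange (n = 12); the dashed line is the filter level of 1.44. Psmb6 and Psmd6 separate the strains, Psmd10 is shifted with overlap, the other genes overlap widely, and levels of different genes are not comparable with each other. Most of the Psmb6 difference rests on probeset 5443190.

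The outer rings gave no called gene. The 7 tested Psma genes differed by -0.27 (Psma2) to -0.02 (Psma7), all below 0. Psma1 had the widest spread between mice of all 46 genes, with a within-strain SD of 0.47, and was at 6.43 ± 0.54 in B6 and 6.19 ± 0.40 in D2. In Psma3 probeset 5594844 was at 2.93 ± 0.16 in B6 and 3.34 ± 0.29 in D2, with a rise of 0.41 (limma adjusted p = 0.0431) and an index difference of 0.57, while the Psma3 gene value was 0.16 lower in D2 without a call. Psma8 is the testis counterpart of Psma7. Its probeset 5250574 was at 5.24 ± 0.50 in B6 and 5.81 ± 0.50 in D2 (own-level difference 0.57, limma adjusted p = 0.137), and the other 10 averaged between 0.02 and 1.34 in B6 and between -0.08 and 1.31 in D2.

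None of the 6 ATPase genes of the regulatory particle was called (differences from -0.21 for Psmc6 to 0.16 for Psmc2). Psmc3 (-0.20, limma adjusted p = 0.133) had 14 of 15 probesets lower in D2. Its probesets 5145876 (5.81 ± 0.21 in B6, 5.30 ± 0.21 in D2) and 5502219 (6.85 ± 0.29 and 6.32 ± 0.32) fell at their own level. Probeset 4508297 (5.70 ± 0.51 and 6.16 ± 0.32) had an index 0.66 higher in D2 without a called level. In Psmc6, 17 of 18 probesets were lower in D2 and 4795021 alone was called (8.33 ± 0.36 and 7.72 ± 0.32). Besides Psmd6, the other 10 tested Psmd genes of the regulatory particle ran from -0.32 for Psmd14, the deubiquitinase of the lid, to 0.10 for Psmd13, and none was called. The scaffold gene Psmd2 had the smallest spread of all 46 genes (within-strain SD 0.11), at 8.35 ± 0.10 in B6 and at 8.28 ± 0.11 in D2.

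The 3 assembly chaperones of the regulatory particle had a median difference of -0.34. Psmd10, which encodes gankyrin, was at 5.54, 6.03 and 6.34 in B6 (lowest, median and highest) and at 5.19, 5.55 and 6.07 in D2. The strains overlapped, and the value fell by 0.40 (SE 0.11, limma adjusted p = 0.0185). All 8 probesets were lower in D2, by 0.24 to 0.75, and 4448307 (6.13 ± 0.30 in B6, 5.63 ± 0.27 in D2) was the one called. The call was kept without any other single probeset but not without 4448307 (difference -0.32, limma adjusted p = 0.0933), nor with the arrays centred on their gene median (-0.30, limma adjusted p = 0.0741) or with the array median as covariate (-0.28, limma adjusted p = 0.432). Psmd5 was at 5.99 ± 0.30 and 5.65 ± 0.27 (-0.34, limma adjusted p = 0.0591) and Psmd9 at 5.15 ± 0.14 and 4.92 ± 0.19 (-0.23, limma adjusted p = 0.0696). Both were called lower with the array letter as block. Psmd5 was also called lower under the 75th percentile filter and with limma's trend and robust variance model. Psmd9 was called under 4 of 12 other settings in all (limma adjusted p from 0.00124 to 0.404 over the 12). In Psmd9, 16 of 22 probesets were lower in D2 and 6 were called, all lower. The steepest was 4835848, at 4.14 ± 0.59 in B6 and at 2.83 ± 0.68 in D2, whose index fell by 1.08 (limma adjusted p = 0.0217).

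Among the other activators and the inhibitor none was called. Psme1 (-0.01), Psme3 (-0.13), Psme4 (0.01) and Psmf1, the gene of the inhibitor PI31 (-0.15), had limma adjusted p-values of 0.413 or more. The 2 Psme2 probesets were at 5.81 ± 0.17 in B6 and 5.80 ± 0.22 in D2, and at 3.27 ± 0.34 and 3.53 ± 0.48. Psme4, which encodes the large activator PA200, had 63 used probesets, of which 34 were lower in D2 and 3 were called. Probeset 4524198 was at 5.58 ± 0.40 in B6 and 4.66 ± 0.57 in D2 (index difference -0.93, limma adjusted p = 0.0308). Probeset 4626256 was at 3.59 ± 0.37 and 2.70 ± 0.40 (index difference -0.90, limma adjusted p = 0.0056). Probeset 5452544 fell by 0.56 without an exon usage call. None of the 4 assembly chaperone genes of the core particle, Psmg1 to Psmg4, was called (-0.15 to 0.16). Psmg4, farthest from 0 among them, was at 3.37 ± 0.43 in B6 and 3.54 ± 0.35 in D2. Psmc3ip, a meiotic recombination gene that shares the prefix only because its product binds Psmc3, was at 2.21 ± 0.30 and 2.15 ± 0.23.

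Over all 617 used probesets of the family, 26 were called at their own level (4.21%), 23 lower and 3 higher in D2, in 10 genes. Of all used probesets, 3.91% were called, 2.24% lower and 1.67% higher. With the array median as covariate 12 were called, 7 lower and 5 higher. The 5 without overlap between the strains were those already described of Psmb5, Psmb6 and Psmd6, while 0.77% of all used probesets had none. Psmb5 probeset 5037994 is among the 26, the 5 and the 17 exon usage calls, and it passed the filter only through its D2 values.

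The genes around the proteasome were measured in 53 members of 5 lists, and 1 rose, 1 fell and 51 were not called, while 2.57% of all genes were called higher and 8.26% lower. Akirin2, which is known for the nuclear import of proteasomes, rose by 0.38 (6.28 ± 0.14 in B6 and 6.66 ± 0.18 in D2, limma adjusted p = 0.00133). The list of assembly, localisation and transcription factors held 7 more genes, none called. Of 7 antigen-processing partners, B2m, the light chain of class I molecules, fell by 0.51 (7.79 ± 0.17 and 7.28 ± 0.47, limma adjusted p = 0.0243). The peptide transporter genes Tap1 (0.10) and Tap2 (-0.09) were not called. None of 17 enzymes that activate or conjugate ubiquitin was called (Ube2e1 at -0.41 and Ube2a at -0.33 were farthest from 0, and 3 of the 17 had an unadjusted p under 0.05). None of 11 ligases, deubiquitinases and receptors bound to the proteasome was called (Uchl5 at -0.27, Sem1 at -0.23), and none of 10 shuttle and segregase genes (Nsfl1c at -0.19, Ubqln1 at -0.18), with 1 unadjusted p under 0.05 in each list. With the arrays centred on their gene median the 2 calls were both higher in D2, and with the array median as covariate the 1 call was higher.

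Neuronal markers were high in both strains (5 measured, 8.21 to 10.12 in B6 and 8.10 to 10.01 in D2, none called). Of markers of other cells, 2 of 5 astrocyte, 1 of 4 oligodendrocyte, 1 of 5 microglia, 2 of 3 endothelial, 2 of 4 choroid plexus and 2 of 2 blood genes fell in D2, and 0 of 2 testis genes were called, beside 8.26% of all genes called lower. None averaged below the filter level in both strains, and Rbfox3 (neurons) and Hba-a1 (blood) had no used probeset. The summed level of the choroid plexus list was 10.84 to 11.06 in B6 and 10.38 to 11.00 in D2, and that of the blood list 9.81 to 10.39 and 5.10 to 7.21. Each sum was taken on the linear scale, so the brightest genes weigh most. In choroid plexus that was Ttr (10.87 in B6 and 10.72 in D2, not called). Folr1 (-0.61) and Otx2 (-0.49) were the 2 called lower there. In blood it was Hbb-b1 (10.16 and 6.04), whereas Alas2 was at 4.44 and 3.54 and overlapped between the strains. Whether D2 variants lie under the Hbb-b1 probesets was not tested. The blood sums did not overlap. The others did, at 11.30 to 11.61 and 11.21 to 11.58 for neurons, 9.73 to 10.04 and 9.57 to 9.86 for astrocytes, 9.56 to 9.90 and 9.21 to 9.78 for oligodendrocytes, 7.45 to 8.16 and 7.29 to 7.91 for microglia, 6.59 to 7.01 and 6.22 to 6.79 for endothelial cells and 3.36 to 4.39 and 3.15 to 4.96 for testis genes. Their part in the falls of Psmd6, Psmb6 and Psmd10 was not tested. The median of the 46 proteasome genes was 6.04 to 6.52 on B6 arrays and 5.96 to 6.28 on D2 arrays, beside a median over all genes of 4.52 to 4.80 and 4.40 to 4.73. The file names in the labels carry a letter, A on 18 arrays and B on 4 (2 per strain). Within A arrays Psmd6 differed by -1.03, Psmb6 by -0.92 and Psmd10 by -0.37, and within B arrays by -1.03, -1.83 and -0.45. Psmb5 probeset 5037994 differed by 4.24 and 3.47, and Psmb6 probeset 5443190 by -5.36 and -6.11.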

How the data were processed

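Whole-brain RNA of 10 B6 and 12 D2 mice was analysed, 1 array per mouse. Of 24 arrays hybridised, the authors left out 2 read on another scanner, per the labels. The authors deposited log2 values made with RMA (affy 1.12.2, R 2.6.0), per the submitters' processing notes. Of 1201338 probesets, 10932 were empty. Gene symbols came from GEO's platform annotation (17991 current, 3990 updated through a mouse gene table, 295 kept as given). The mouse reference sequence is that of B6, and whether D2 variants lie under a probeset was not tested. The precision is limited by the number of arrays.

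Filtering at the median probeset mean (595203 kept), the gene median and the splicing index are described in the report. All tests used limma 3.58.1 (lmFit, eBayes) in R 4.3.3 over all features, with all 22 arrays and no covariate. The gene-level and exon usage tests were tried on simulated data, the own-level probeset test was not. Figures used matplotlib 3.10.9. Alternatives changed the filter, gene summary, scaling, array letter, arrays and variance model. Named were all called genes and those with exon usage calls, the catalytic subunits, the member farthest from 0 in each role group, those with the highest or lowest level or spread, and the called or farthest genes of each pathway list. The members, lists and rules were chosen with earlier results of these data known.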

Additional observations from a re-analysis of the deposited data

Results flagged for a closer look

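Over 63 sets of 10 B6 values (46 genes and the 17 probesets with an exon usage call), 1 mouse stood apart from the others in 3, by the gap between the extreme value and its neighbour relative to the whole range. Chance alone sets 1 group in 20 apart in this way. B6 replicate 9 was lowest for Psmb1 (6.19, the next 6.48), B6 replicate 1 for Psme3 (6.67, the next 7.01) and B6 replicate 11 for Psmg4 (2.25, the next 3.19). These 3 genes were not called between the strains. D2, with 12 mice, was not checked in this way.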

How the results depend on the processing

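The fall of Psmd6 was called under 11 of 12 other settings (-1.08 to -0.91), the exception being the 4 letter B arrays alone (-1.03, limma adjusted p = 0.0972), and that of Psmb6 under all 12, though its size ran from -1.83 (letter B arrays alone) to -0.30 (without the probeset with the largest difference). Psmd10 lost its call under 3 of 12. The 3 called genes became 5 with the array letter as block (Psmd5 and Psmd9 added) and 1 on letter B arrays. They became 6 with the mean over probesets (Psmc3 and Psmd9 added as lower, Psmb5 as higher). With each gene taken without its probeset of largest difference (chosen after seeing the data) they became 5 (Psmd9 added as lower, Psmb8 as higher). They became 4 under the 75th percentile filter and with the trend and robust variance model (Psmd5 added). Without D2 replicates 13, 14 and 19 they also became 4 (Psmd9 added). Leaving out each array in turn, also chosen after seeing the data, gave 3 or 4 called genes, with Psmd5 added in 3 fits (without B6 replicate 1 or 9 or D2 replicate 23) and Psmd9 in 2 (without B6 replicate 4 or D2 replicate 14). Psmd6, Psmb6 and Psmd10 were called in each of the 22 fits. With the array median as covariate, which differs between the strains, the called genes among all tested went from 1735 to 495. The 26 probesets called at their own level became 12 with the array median as covariate and 1 on letter B arrays. The 17 exon usage calls became 9 with the covariate, where 11 of the 17 lost their call and other probesets were newly called. The 17 became 0 on the 4 letter B arrays (limma, 49 with an unadjusted p under 0.05) and 5 at an index difference of at least 1. The 2 called pathway genes became 6 under the 75th percentile filter, 1 with the covariate, 4 with the letter as block, 1 on letter A arrays, 0 on letter B arrays (limma, 7 with an unadjusted p under 0.05) and 6 with the mean over probesets. The causes were not tested.

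Of the genes named, some uncalled ones changed sign, and Psmb5 did so with a call that rests on probeset 5037994, at 0.45 with the mean over probesets. Under that setting Psmb10 was at 0.063, Psmb7 at 0.065, Psmc3ip at 0.0075 and Psme4 at -0.040. Psmb7 was at 0.015 without the filter, 0.0044 with the letter as block and 0.050 on letter A arrays, and Psme4 was at -0.027 under the 75th percentile filter. With centred arrays Psmb10 was at 0.053, Psmb5 at 0.046, Psmb7 at 0.10 and Psmc3ip at 0.035. With the covariate Psmb2 was at 0.25, Psmb5 at 0.17, Psmb7 at 0.21, Psmc3 at 0.030, Psmc3ip at 0.035, Psmc6 at 0.042 and Psmf1 at 0.11. Psmb10 was at 0.0025 on letter A arrays, Psmb5 at 0.043 and Psmg4 at -0.27 on letter B arrays, and Psmg4 at -0.0011 without its probeset of largest difference. No paired analysis was possible because the strains share no replicate number. Signals near the filter level of 1.44 limit Psmb8, Psmb9 and the low side of probesets 5037994 and 5443190.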

Other observations

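Probesets that the annotation gives to a proteasome gene and to another symbol were used for no gene. Of 18 shared between Psma5 and EG666974, 16 passed the filter and none was called at its own level (differences from -0.70 to 0.07, limma over all used probesets). Of 13 shared between Psme2 and Psme2b-ps, 7 passed and none was called (-0.18 to 0.23), and of 23 shared between Psme2b-ps and 9930111J21Rik, some also with EG432555, 14 passed and none was called (-0.35 to 0.38). The probeset shared between Psme1 and EG665766 was at 7.11 in B6 and 6.87 in D2 without a call.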
